A study of Mus musculus with 19 samples.

Results

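The genes of the cytosolic ribosomal proteins were described in RNA-seq libraries of 14 induced pluripotent stem cells (iPSC), 3 embryonic stem cells (ESC) and 2 epiblast stem cells (EpiSC) of the mouse. Members were chosen by their symbol (Rpl or Rps with a number, together with Rplp0, Rplp1, Rplp2 and Rpsa), and 84 of the 23420 genes in the count tables met this rule. Of these, 43 encode proteins of the large subunit, 31 encode proteins of the small subunit, 3 encode the proteins of the acidic stalk, and 7 are paralogues (Rpl3l, Rpl10l, Rpl39l, Rpl22l1, Rpl7l1, Rps27l and Rps4y2). All 84 were found in the GENCODE M21 annotation of GRCm38, where Rps4y2 is named Rps4l and annotated as a transcribed processed pseudogene.

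The ribosome is made of a small subunit, which reads the messenger RNA, and a large subunit, which joins the amino acids. Most ribosomal proteins are present in equal number in each ribosome, with the stalk proteins as the known exception, and the genes are known to be regulated together in growing cells. Many of their messenger RNAs begin with a run of pyrimidines, the TOP motif, through which their translation is controlled by mTOR. The family has many processed pseudogenes, so that read pairs from these genes are often hard to place.

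The iPSC came from pooled fibroblasts of a litter, reprogrammed with a lentiviral Oct4, Klf4, Sox2 and Myc cassette that was not removed, and each clone gave 1 library per medium. NOD/ShiLtJ male iPSC (clones 3 and 35), NOD/ShiLtJ female iPSC (7 and 52), WSB/EiJ male iPSC (12 and 25) and WSB/EiJ female iPSC (23 and 28) were derived and kept in 2iS, serum medium with LIF and inhibitors of GSK3B and MEK. The 129S1/SvImJ male (1 and 17) and female (5 and 8) iPSC were kept in ESC/LIF medium, and later passages of the male clones 1 and 17 were sequenced after a change to 2iS. Single ESC lines of NOD/ShiLtJ, WSB/EiJ and 129S1/SvImJ in 2iS, and single EpiSC lines of NOD/ShiLtJ and of 129 (FT129/4, of the 129/Sv background), all of them male and supplied by other laboratories, were the reference lines. Cultures were sampled at passages 16 to 31 (iPSC), 6 (ESC) and 16 and 38 (EpiSC). Medium cannot be told apart from strain among the iPSC that were not moved to 2iS, nor supplier and culture from cell state. In the 129S1/SvImJ male clones that were moved, medium cannot be told apart from passage.

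Libraries held 92996 to 567432 counts on genes. Genes took 1.15% to 1.74% of the uniquely aligned read pairs in 17 libraries, and 5.62% and 5.59% in the NOD/ShiLtJ male iPSC (clones 3 and 35), so these clones stand apart, and counts of calls that rest on them are given on both scales. The strand setting used for counting is not given in the sources used here. In the 17 libraries, genes outside the family with exons opposite those of a gene on the other strand held 64.6% of all gene counts (5651 genes), and those without such an overlap held 31.2% (17323 genes). Of the 84 members, 19 have such an overlap. Whether the counts of a member came from its own transcript or from the opposite strand was not tested, and the values below are the read pairs assigned to each member. With 3 counts as the smallest detectable number, the floor was 5.29 counts per 1000000 gene counts (CPM) in the deepest library and 32.3 CPM in the shallowest. Intervals and floors cover counting error only. In bulk RNA, fewer cells of a type and less RNA per cell cannot be told apart.

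Together the 84 members held about 1% of the gene counts. Without NOD/ShiLtJ males, the summed share of the iPSC was 1.02% ± 0.126 (SD, n = 12), with a range of 0.822% to 1.28%. The ESC held 0.683% (NOD/ShiLtJ, 95% Wilson confidence interval 0.638% to 0.730%), 0.9502% (WSB/EiJ, 0.896% to 1.01%) and 1.11% (129S1/SvImJ, 1.06% to 1.16%). The EpiSC held less than every one of the 12 iPSC, with 0.653% in NOD/ShiLtJ (0.621% to 0.688%) and 0.324% in 129 (0.2997% to 0.351%). The highest shares were those of the NOD/ShiLtJ male iPSC, at 2.76% (2.72% to 2.80%) in clone 3 and 2.62% (2.58% to 2.67%) in clone 35. Scaled to uniquely aligned read pairs, the 17 other libraries held 41.8 to 199 member pairs per 1000000 and the NOD/ShiLtJ male iPSC held 1551 and 1465. No test was made of the summed values.

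**Figure D1:**
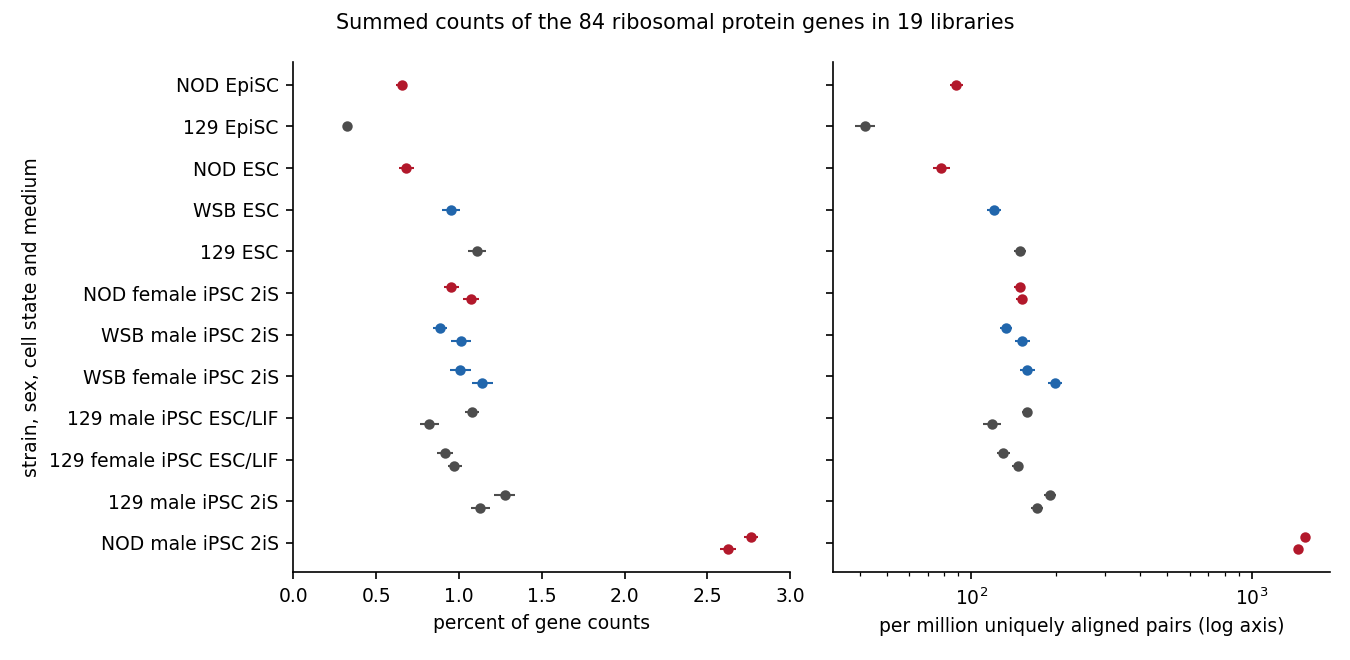
Summed counts of the 84 ribosomal protein genes per library, as percent of gene counts (left) and per 1000000 uniquely aligned pairs on a log axis (right), by strain, sex, cell state and medium. Each point is 1 library with its 95% Wilson interval, coloured by strain (NOD/ShiLtJ red, WSB/EiJ blue, 129 grey). The 2 NOD/ShiLtJ male iPSC, at 2.76% and 2.62%, lie to the right of all other libraries, and the 129 EpiSC is lowest at 0.324%.

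The counts were unevenly spread over the family. Rpl4, a protein that lines the exit tunnel of the large subunit, alone held 17.4% of the member counts of the 17 libraries, and 13.2% to 23.2% in single libraries. Per kilobase of exon, Rpl4 was also the highest (825 CPM per kb), followed by the stalk protein gene Rplp1 (464), Rpl8 (441), Rps15 (421) and Rpl32 (401). By mean CPM over the 17 libraries the highest members reported here were Rpl4 (1655 ± 419, SD, n = 17), Rpl8 (599 ± 159), Rps3 (593 ± 186), Rplp0 (442 ± 153), Rpl32 (387 ± 151), Rps24 (343 ± 117), Rps15 (265 ± 73.8), Rps9 (242 ± 68.4) and Rpl41 (236 ± 83.1). The SDs of neighbours in this order overlap, apart from the step from Rpl4 to Rpl8. At the other end, 23 members had a median of at most 1 count in the 17 libraries, and between 61 and 75 members had any count in a single library. Rps6, whose product is the phosphorylated protein of the small subunit, had 0 to 4 counts in each of these libraries. Rpl5 and Rpl11, which form the particle with 5S RNA that can bind Mdm2, had 2 to 14 and 0 to 11 counts. Small subunit members held 36.2% to 44.0% of the member counts of a library, and members with exons opposite another gene held 10.4% to 23.3%, most in the 129 EpiSC.

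Read pairs that align to several places are not in these counts. For 79 of the 84 members, at least 1 other annotated gene had a transcript with 95% identity or more over at least 100 bases, with a median of 5.5 such genes and a maximum of 62 (Rpl21). Per kilobase, the median level in the 17 libraries was 81.6 CPM for the 19 members with 0 to 2 such copies, 17.0 for the 38 members with 3 to 7, and 11.6 for the 27 members with 8 or more. The first of these classes held 52.2% of the member counts. Values of members with many copies are therefore uncertain, among them Rpl21, Rps2 (32 copies), Rpl15 (14) and Rpsa (12). Rpl4 (1), Rps3 (2), Rpl8 (1) and Rps4y2 (0) had few.

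Among the members the cell states and strains set apart, some hold words of the pyrimidine run close to the annotated start and others do not. RefSeq promoter sequences of GRCm38.p6 were at hand for 63 members (75 promoters). The word CTTTT, the word CTTTC, the word CTCTT or the word CCTTT, read on the strand of the gene from 5 bases before to 10 bases after the start, were found in 19 of these 75 promoters (25.3%), against 4.98% of all 32851 promoters. These words overlap one another, and only the gene's strand was read. The E-box CACGTG, which reads alike on both strands and is bound by Myc, was found in the 300-base promoters of 10.7% of member entries and 7.15% of all. A match is a description of these letters and not of a used site. Shown are the 30 bases before and 10 bases after the start of members whose counts differed by strain below, with the matched word and the pyrimidines after it in capitals. They are of the reference genome and not of the strains studied. Of other members named by state or strain, Rpl14 and Rpl38 also held such a word, and Rpl24, Rpl11, Rps16, Rpl10l, Rps4x and Rpl4 held none in the bases read. For Rpl4 a pyrimidine run with such words lies just before these bases, so its result depends on where the start is annotated. The window of Rps18 lies at chr17:33955656-33955695 on the minus strand, that of Rpl15 at chr14:18270977-18271016 (minus), that of Rps26 at chr10:128626497-128626536 (minus) and that of Rps2 at chr17:24720033-24720072 (plus), an annotated start that holds no such word.
Rps18: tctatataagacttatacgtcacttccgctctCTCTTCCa
Rpl15: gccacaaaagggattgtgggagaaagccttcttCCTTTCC
Rps26: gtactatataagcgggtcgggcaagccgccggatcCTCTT
Rps2: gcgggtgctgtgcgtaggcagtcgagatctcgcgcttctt

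The first comparison asked whether iPSC resemble ESC or the primed EpiSC. The naive markers followed the labels, since 9 of 9 tested were higher in iPSC and in ESC than in EpiSC, and Zfp42, Esrrb and Klf4 had 0 counts in both EpiSC. The primed markers were mostly too low to test and did so in part. Fgf5, Cer1, Foxa2 and Sox17 had 0 counts in the 12 iPSC and the ESC, and 17, 7, 3 and 2 over both EpiSC, where each was at 0 in 1 of the 2 lines. Nodal, the only primed marker tested, was not called, with log2 fold changes of 1.55 in iPSC and 1.84 in ESC over EpiSC, and Lef1 and Otx2 reached higher values in ESC than in EpiSC. Against EpiSC, 11 of the 43 members that passed the filter on low counts were higher in iPSC (25.6%) and 0 were lower (edgeR's quasi-likelihood test, Benjamini-Hochberg adjusted p under 0.05), where 11.2% of all 3986 genes tested were higher and 28.3% changed in either direction. The median log2 fold change of the 43 members was 0.83, and that of all genes tested was 0.10. Among the 11 were Rps4y2, Rpl24, Rpl10l, Rps18, Rps4x, Rpl7, Rplp1, Rpl14, Rpl4 and Rpl8. Rps4y2, Rpl24 and Rpl10l, with 0 counts in both EpiSC, passed this filter only through iPSC and ESC and could not be lower. With uniquely aligned pairs as the library size the median of all genes moved to 0.62, that of the members to 1.31, 24 members were higher (27.1% of all genes) and 0 lower (8.15%).

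Rps4y2, a single-exon S4-like copy on Chromosome 6 (148354656 to 148355598, plus strand), gave the widest separation. Both EpiSC had 0 counts, so Rps4y2 passed the filter on low counts only through iPSC and ESC, and its direction was set in advance. The 12 iPSC had 16 to 65 counts, or 158 to 343 CPM with a median of 264, and the NOD/ShiLtJ, WSB/EiJ and 129S1/SvImJ ESC had 21, 32 and 32. Against a floor of 3 counts over both EpiSC, Rps4y2 was at least 34.5-fold higher in iPSC (adjusted p = 1.56e-07) and at least 30.4-fold higher in ESC (adjusted p = 2.72e-06, both edgeR). The NOD/ShiLtJ male iPSC, which were not part of this test, had 472 and 488 counts (832 and 1134 CPM). All iPSC and ESC lay above both EpiSC. Without either EpiSC line in turn Rps4y2 was still called.

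Rpl10l, the copy of Rpl10 known from the testis, and Rpl24, a large subunit protein at the joint of the subunits, also had 0 counts in both EpiSC. Both genes likewise passed the filter only through iPSC and ESC, which set their direction. Rpl10l had 0 to 14 counts in the iPSC and 3, 5 and 19 in the NOD/ShiLtJ, WSB/EiJ and 129S1/SvImJ ESC, so that WSB/EiJ male clone 25, at 0, overlapped the EpiSC. Pooled over libraries it was at least 5.199-fold higher in iPSC and at least 9.66-fold higher in ESC than the floor (adjusted p = 0.017 and 0.0138). Rpl24 had 1 to 13 counts in the iPSC, the lowest in NOD/ShiLtJ females, and 2, 9 and 4 in the ESC. It was at least 6.21-fold higher in iPSC and at least 5.37-fold higher in ESC (adjusted p = 0.0128 and 0.043). Without the NOD/ShiLtJ EpiSC the adjusted p of iPSC against EpiSC was 0.124 for Rpl10l and 0.104 for Rpl24, and without the 129 EpiSC it was 0.0973 and 0.0826.

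Rps4x, the X-linked protein S4 of the small subunit, had 12 counts in the NOD/ShiLtJ EpiSC and 1 in the 129 EpiSC (54.3 and 5.22 CPM). All 12 iPSC lay above, from 87.6 to 372 CPM with a median of 131, and the log2 fold change was 1.98 (SE 0.58, adjusted p = 0.0148). Rps18, a protein of the head of the small subunit, had 4.53 and 20.9 CPM in the EpiSC and 6.02 to 255 in the iPSC (log2 fold change 3.21, SE 1.14, adjusted p = 0.0383), and the NOD/ShiLtJ iPSC overlapped the EpiSC. The abundant Rpl4 had 1113 CPM in the NOD/ShiLtJ EpiSC and 433 in the 129 EpiSC, against 1457 to 2258 in the iPSC and 1586, 2162 and 2065 in the NOD/ShiLtJ, WSB/EiJ and 129S1/SvImJ ESC. Its log2 fold change was 0.86 (SE 0.22, adjusted p = 0.00679) in iPSC and 1.06 (SE 0.26, adjusted p = 0.00897) in ESC over EpiSC. Of the others named, Rpl8 had a log2 fold change of 0.84, Rpl14 of 1.12 and Rpl7 of 1.70. Of the stalk genes, Rplp1 was called (1.34, SE 0.35, adjusted p = 0.00685), Rplp0 had 0.63 without passing, and Rplp2 was not tested.

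**Figure D2:**
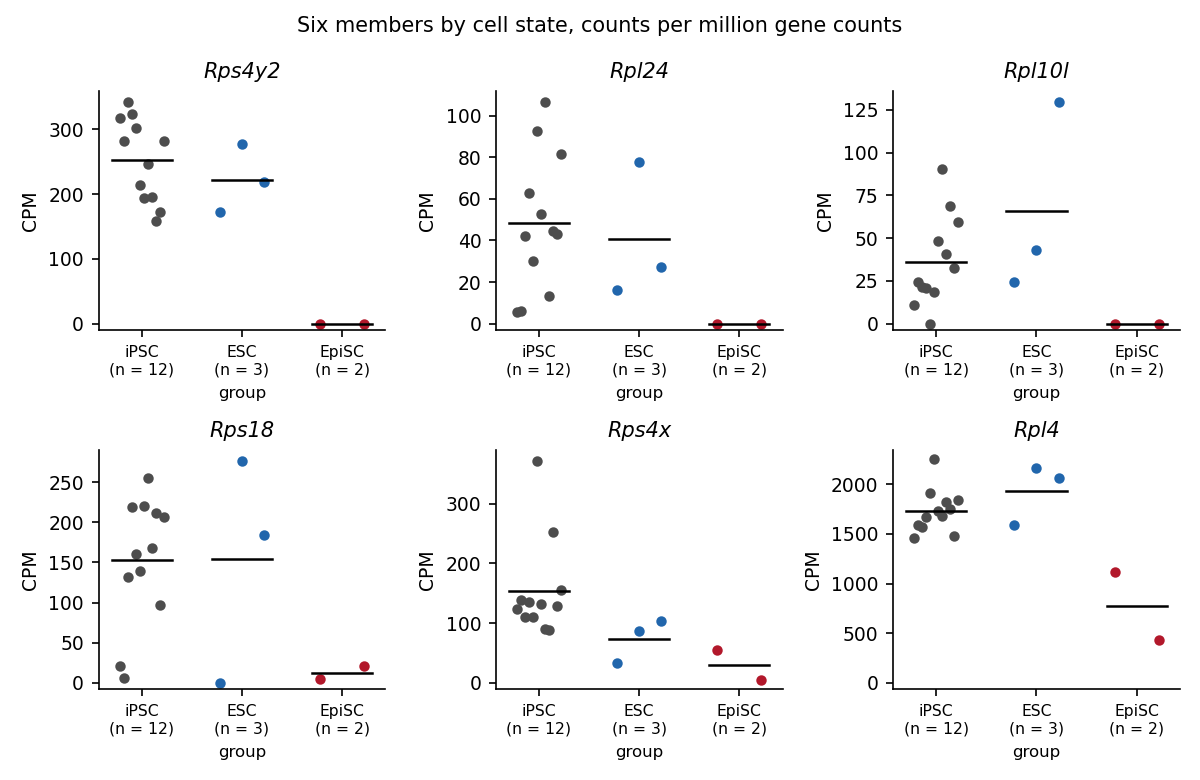
CPM (counts per 1000000 gene counts) of Rps4y2, Rpl24, Rpl10l, Rps18, Rps4x and Rpl4 in iPSC other than NOD/ShiLtJ males (n = 12), ESC (n = 3) and EpiSC (n = 2). Points are libraries and bars are means. Rps4y2, Rpl24 and Rpl10l are at 0 in both EpiSC, and the EpiSC point of Rpl4 nearest to the iPSC is at 1113 CPM.

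Leaving out 1 EpiSC line leaves a single EpiSC library, which the fit assumes to vary like the other groups. Without the 129 EpiSC 1 member, Rps4y2, was higher in iPSC and the median was 0.47, and without the NOD/ShiLtJ EpiSC 14 were higher and the median was 1.38. The fibroblast marker sum, of 12 genes that feeder cells express, was 54.3 CPM in the NOD/ShiLtJ EpiSC, 282 in the 129 EpiSC, 826 to 1750 in the ESC and 0 to 92.9 in the 12 iPSC. Dcn had 0 counts in the EpiSC and the ESC, and Thy1 and Postn had 0 in the iPSC. Of the 12, 5 were tested, of which 5 were lower in iPSC than in ESC and 3 lower in iPSC than in EpiSC. The part of feeder cells in the differences between cell states was not tested.

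For ESC against EpiSC, 4 members were higher (Rps4y2, Rpl10l, Rpl24 and Rpl4) and 0 were lower of 43, where 6.85% of all genes were higher, 8.23% lower and 15.1% called. Rps4y2, Rpl10l and Rpl24, without a count in either EpiSC, passed the filter only through ESC and iPSC and could not be lower. On the scale of uniquely aligned pairs 5 were higher and 0 lower (8.48% and 5.02% of all genes). The median of the members was 0.58. Leaving out 1 line moved the count to between 1 (without the 129 EpiSC) and 8 (without the NOD/ShiLtJ EpiSC or ESC), and it was 2 without the 129S1/SvImJ ESC. For iPSC against ESC, 0 of 43 members were called by edgeR or by DESeq2, 4 had an unadjusted p under 0.05, and the median was 0.23, where 6.22% of all genes were called (1% higher and 5.22% lower). No member was called per uniquely aligned pair either (4.94% of all genes higher and 3.24% lower).

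Other genes of ribosome making were counted in the same fits, in which 11.2% of all genes were higher in iPSC than in EpiSC and 28.3% called in either direction. Of the ribosome biogenesis factors, 16 of 37 tested were higher and 0 lower in iPSC than in EpiSC (median 1.04), among them Nop2, an rRNA methyltransferase (1.74, SE 0.47), Rrp1b (1.73, SE 0.50), Heatr1 (1.67, SE 0.45) and Rrp12 (1.55, SE 0.46). Of the translation factors, 14 of 34 were higher and 0 lower (median 0.76), with Eif3m (2.68, SE 0.92), Eif2s1, a subunit of eIF2 (1.87, SE 0.41), Eif3l (1.61, SE 0.33) and Eif3g (1.19, SE 0.34) as the largest. The mitochondrial ribosome, which is built from another set of proteins, had 2 of 12 higher (Mrpl15 and Mrpl12) and 3 lower, with a median of 0.12. Ribosomal proteins outside the symbol rule were counted as Gnb2l1 (Rack1), called at 0.77 (SE 0.27), and Rpl36al, not called at 1.64 (SE 0.88). With uniquely aligned pairs as the library size 33 biogenesis factors, 25 translation factors and 4 genes of the mitochondrial ribosome were higher and 0 lower (27.1% and 8.15% of all genes). In ESC over EpiSC 1 of 37 biogenesis factors and 2 of 34 translation factors were higher and 0 lower, shares below the 6.85% of all genes that were higher. In iPSC over ESC 0 of 37 biogenesis factors (median 0.44) and 3 of 34 translation factors (median 0.32) were higher and 0 lower. Of all genes, 1% were higher and 5.22% lower there. Per uniquely aligned pair 8 and 6 were higher and 0 lower (4.94% and 3.24% of all genes).

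In the NOD/ShiLtJ male iPSC against the average of the 5 remaining strain and sex groups, most members changed. Of 51 members tested, 31 were higher and 9 lower (78.4% called), where 32.4% of all 4784 genes were higher, 26.6% lower and 58.9% called. The median log2 fold change was 0.90 for the members and 0.27 for all genes. The higher members include Rpl39l, which passed the filter on low counts only through the NOD/ShiLtJ males. Scaled to uniquely aligned pairs, 44 members were higher and 0 lower (81.4% of all genes were higher and 3.01% lower), and the medians were 3.30 and 2.66.

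Rpsa, a small subunit protein also known as the laminin receptor, had 372 and 241 counts in clones 3 and 35. In CPM these were 656 and 560, against 40.4 to 145 with a median of 93.7 in the 10 other iPSC (log2 fold change 2.18, SE 0.22, adjusted p = 9.68e-10). Both clones lay above all 10. Rpl39l, the copy of Rpl39 known from the testis, had 123 and 79.0 CPM against 0 to 33.7 (3.55, SE 0.50, adjusted p = 6.54e-07). It passed the filter only through clones 3 and 35, so its direction was set by the filter and its p-value adds no support. Rps2, of the small subunit near the entry of the messenger RNA, had 256 and 291 CPM against 0 to 198 (2.53, SE 0.33), and the lowest of the 10 were WSB/EiJ iPSC.
Rpl41, the shortest ribosomal protein, had 1269 and 1244 CPM against 173 to 413 (1.81, SE 0.18), and Rps15 had 1246 and 1132 against 183 to 361 (1.63, SE 0.18). The 3 stalk genes differed in call, with Rplp0 at 1.29 (SE 0.15) and Rplp1 at 1.12 (SE 0.17) called and Rplp2 at 0.58 not called. Rpl4 rose by 0.63 (SE 0.14), below the median of the members. Per uniquely aligned pair the log2 fold changes were 4.57 for Rpsa, 5.80 for Rpl39l, 4.90 for Rps2, 4.22 for Rpl41 and 4.03 for Rps15, where the median of all genes was 2.66. By subunit, 13 of 21 small subunit members tested were higher and 2 lower, and 13 of 23 large subunit members were higher and 7 lower.

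The largest falls were those of Rpl21, Rpl11, Rps16, Rps18 and Rpl28. Rpl11 had 3 counts in each clone (5.29 and 6.97 CPM), against 5.38 to 83.6 CPM in the 10 others (log2 fold change -2.87, SE 0.61, adjusted p = 0.000229). The NOD/ShiLtJ females, at 5.38 and 6.02 CPM, overlapped the males. Rps18 had 21.2 and 32.6 CPM against 6.02 to 221 (-2.48, SE 0.37), again overlapping the NOD/ShiLtJ females at 21.5 and 6.02. Rpl21 had 0 and 2 counts in the male clones, and over 10 other iPSC the pooled level was 16.8 times as high (exact interval for counting error 4.42 to 142). Rps16 fell by 2.60 (SE 0.62) and Rpl28 by 2.21 (SE 0.64). Per uniquely aligned pair none of the 9 was lower by the test: Rpl21, Rpl11, Rps16 and Rps18 had -0.95, -0.60, -0.29 and -0.10, Rpl28 had 0.08, and Rpl15, lower by 1.10 on the first scale, was higher by 1.28.

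**Figure D3:**
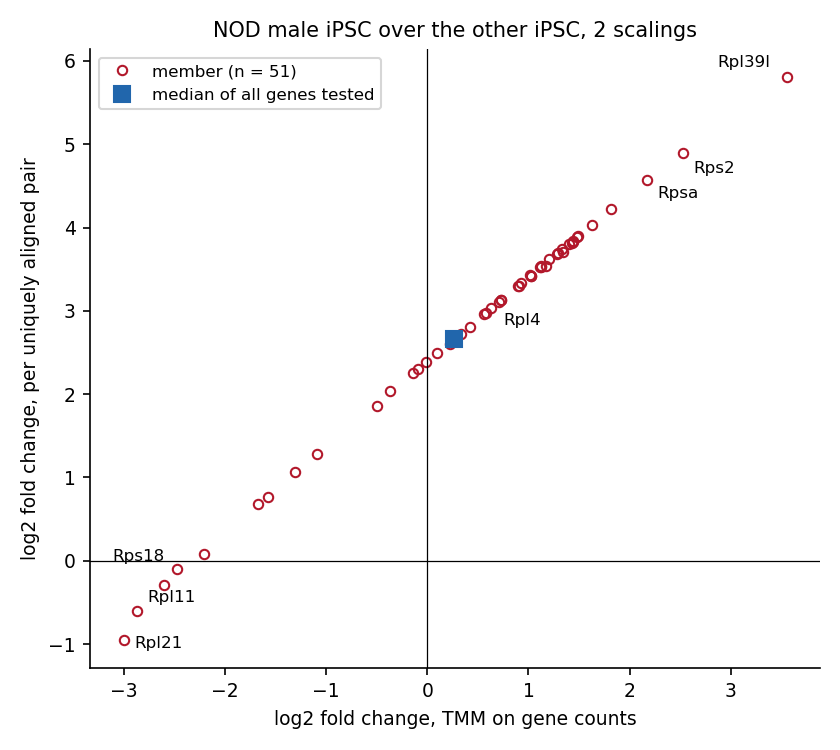
Log2 fold change of NOD/ShiLtJ male iPSC over the average of the 5 remaining iPSC groups for the 51 members tested (circles), with TMM on gene counts (x axis) and per uniquely aligned pair (y axis). The square is the median of all genes tested, at 0.27 and 2.66. Rpl39l, Rps2 and Rpsa lie at the upper right and Rpl21 at the lower left, below 0 on both scales.

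Within the strain and medium, NOD/ShiLtJ male iPSC against NOD/ShiLtJ female iPSC gave 23 members higher and 0 lower of 51, where 14.4% of all genes were higher, 22.8% lower and 37.2% called. Among the largest changes were those of Rpl39l (log2 fold change 2.05, SE 0.60, adjusted p = 0.00782), Rpsa and Rpl41. Of these, Rpl39l passed the filter on low counts only through the males, which set its direction. Rpsa had 145 and 132 CPM in the females (log2 fold change 1.62, SE 0.32, adjusted p = 0.000133), and both males were above. Rpl41 had 280 and 331 CPM in the females (1.54, SE 0.27). DESeq2 called 11 of the 51, a count given here without the share of all genes, and Rpl39l was not among them (adjusted p = 0.222). Per uniquely aligned pair 47 were higher and 0 lower (78.3% and 1.36% of all genes). The members lower in the comparison with all strains, Rpl11, Rps16, Rps18 and Rpl21 among them, were not called against NOD/ShiLtJ females.

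The same lists were counted for NOD/ShiLtJ male over other iPSC, where 32.4% of all genes were higher and 26.6% lower. Of the translation factors, 19 of 36 were higher and 2 lower, with Eif3k (1.65, SE 0.20), Naca (1.57, SE 0.22) and Eef1a1 (1.52, SE 0.14) higher and Eif5b lower (-1.43, SE 0.16). Of the biogenesis factors 15 of 41 were higher and 3 lower, with Nop56 at 1.14 (SE 0.21) and Bysl at -2.64 (SE 0.20). The mitochondrial ribosome had 12 of 27 higher and 5 lower, with Mrps12 at 2.35 (SE 0.46) and Mrpl48 at -2.70 (SE 0.34). Gnb2l1 was higher by 0.93 (SE 0.16). Per uniquely aligned pair 36 translation factors, 40 biogenesis factors, 24 genes of the mitochondrial ribosome and 9 naive markers were higher and 0 lower (81.4% and 3.01% of all genes). DESeq2 called 11 translation factors, 3 biogenesis factors and 3 genes of the mitochondrial ribosome higher, and 2, 3 and 5 lower, counts given here without the share of all genes. Naive markers summed to 5366 and 4173 CPM in these clones and to 1409 to 2510 CPM in the 12 other iPSC, and 7 of 9 tested were higher. The male NOD/ShiLtJ EpiSC and ESC, lines from other laboratories, did not share these levels, with member shares of 0.653% and 0.683%. These 2 clones are the only iPSC of NOD/ShiLtJ males, so that within iPSC the preparation of these libraries and this group cannot be told apart.

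Strain gave fewer calls than the comparison of NOD/ShiLtJ males with the other iPSC. On gene counts the widest log2 fold change of a called member among the iPSC was -5.01, for Rps2 in WSB/EiJ over 129S1/SvImJ. Per uniquely aligned pair this was -4.76, against 5.80 for Rpl39l in NOD/ShiLtJ males over the others. Rpl39l passed the filter on low counts only through these males. In WSB/EiJ iPSC (2iS) against 129S1/SvImJ iPSC (ESC/LIF), 2 members were higher (Rpl38 and Rpl32) and 4 lower (Rps2, Rpl21, Rpl15 and Rps26) of 51, where 5.52% of all genes were higher, 6% lower and 11.5% called. The medians were 0.05 for the members and 0.01 for all genes.

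Rps2 (chr17:24718116-24721929, plus strand) had 0, 1, 1 and 0 counts in WSB/EiJ iPSC clones 12, 23, 25 and 28 and 2 in the WSB/EiJ ESC. The 129S1/SvImJ iPSC in ESC/LIF had 45, 14, 32 and 9 counts in clones 1, 5, 8 and 17, and the NOD/ShiLtJ female iPSC had 18 and 12. All WSB/EiJ libraries were below all of the 129 and NOD/ShiLtJ libraries. The pooled ratio of 129S1/SvImJ over WSB/EiJ iPSC was 36.7 (exact interval for counting error 9.89 to 307, adjusted p = 4.39e-07). Exons of Snhg9 overlap 14 bases of Rps2 on the opposite strand.

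Rpl15, on Chromosome 14, had 43, 24, 41 and 13 counts in the 129S1/SvImJ clones 1, 5, 8 and 17 in ESC/LIF, and 8, 1, 2 and 2 in WSB/EiJ clones 12, 23, 25 and 28 (log2 fold change -3.00, SE 0.41, adjusted p = 4.60e-06). The groups did not overlap, and the 129S1/SvImJ ESC, at 171 CPM, was likewise above the NOD/ShiLtJ and WSB/EiJ ESC at 16.4 and 8.65. Its exons overlap 105 bases of Nkiras1. Rpl21, on Chromosome 5, had 19, 8, 17 and 2 counts against 1, 1, 0 and 2 (-3.15, SE 0.77, adjusted p = 0.00617), and 0 to 2 in every NOD/ShiLtJ library.
Rps26, which lies at the exit of the messenger RNA, had 118 to 217 CPM in 129S1/SvImJ and at most 125 in WSB/EiJ (-1.73, SE 0.31, adjusted p = 0.000239), an overlap at the edge. Rpl38 had 9.87 to 32.3 CPM in 129S1/SvImJ and 18.6 to 100.2 in WSB/EiJ (1.96, SE 0.58, adjusted p = 0.0225). Rpl32 had 256 to 375 and 463 to 658 CPM (0.65, SE 0.20, adjusted p = 0.0351), without overlap of these groups. Outside this fit, the 129S1/SvImJ male clones 1 and 17 in 2iS had 575.5 and 377.6 CPM of Rpl32. Clone 1 thus lay within the WSB/EiJ range. For Rpl38 these 2iS libraries had 16.4 and 22.2 CPM, and for Rps26 271 and 163. DESeq2 called the 4 lower members and neither of the higher (adjusted p = 0.099 and 0.0988). Scaled to uniquely aligned pairs 4 members were higher and 4 lower (8.36% and 4.14% of all genes).

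Between WSB/EiJ and NOD/ShiLtJ female iPSC, which share sex and medium, 4 members were higher (Rps16, Rpl24, Rps18 and Rpl11) and 1 lower (Rps2) of 51, where 1.23% of all genes were higher, 0.982% lower and 2.22% called. Rps18 (chr17:33951999-33956001, minus strand) had 21 and 15 counts in the WSB/EiJ clones 23 and 28, and 4 and 1 in the NOD/ShiLtJ clones 7 and 52 (log2 fold change 3.56, SE 0.60, adjusted p = 0.000457). It had 1 and 0 counts in the NOD/ShiLtJ EpiSC and ESC and 32 in the WSB/EiJ ESC. Exons of Vps52 overlap 156 of its bases on the opposite strand. Rps16 had 10 and 9 counts against 2 and 0, a pooled ratio of 16.5 (3.97 to 146, exact interval for counting error). Rpl24 had 6 and 10 against 1 and 1 (13.9, 3.26 to 124), and Rpl11 had 5 and 9 against 1 and 1 (12.1, 2.79 to 110). Rps2 was the reverse, with 1 and 0 counts in WSB/EiJ and 18 and 12 in NOD/ShiLtJ (17.3, 2.88 to 706). DESeq2 called Rps18 alone, and Rpl24 and Rpl11 had no adjusted p there. With uniquely aligned pairs as the library size 7 members were higher and 1 lower (1.96% and 0.669% of all genes). Sequence differences between these strains and the reference, which can move uniquely aligned pairs between a member and its copies, were not tested.

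**Figure D4:**
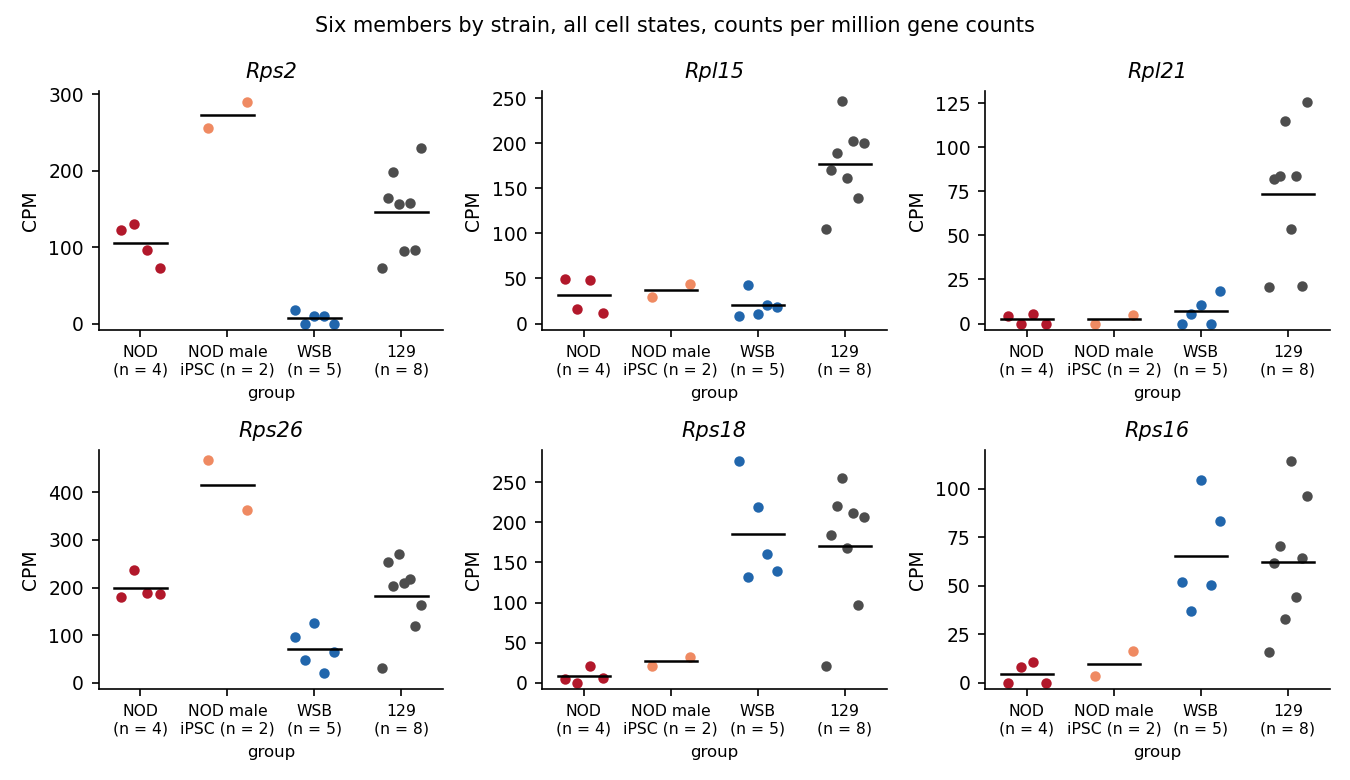
CPM (counts per 1000000 gene counts) of Rps2, Rpl15, Rpl21, Rps26, Rps18 and Rps16 in all libraries of NOD/ShiLtJ other than male iPSC (n = 4), NOD/ShiLtJ male iPSC (n = 2), WSB/EiJ (n = 5) and 129 (n = 8), over all cell states and media. Points are libraries and bars are means. Rps2 is lowest in WSB/EiJ, with 0 to 2 counts per library, Rpl15 and Rpl21 are highest in 129, and Rps18 and Rps16 are low in NOD/ShiLtJ.

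Between the sexes no member was called in the other strains, where few genes of any kind were called. When female clones of WSB/EiJ and 129S1/SvImJ were set against the males of these strains, 0 of 51 members were called by edgeR or DESeq2, 5 had an unadjusted p under 0.05, and 0.732% of all genes were called (0.502% higher and 0.23% lower). Per uniquely aligned pair 0 were called (0.857% and 0.167% of all genes). The difference of male minus female in NOD/ShiLtJ, tested against that of the other strains, was higher for 14 members and lower for 1 (8.32% and 19.8% of all genes, 28.1% called), and per uniquely aligned pair it was higher for 43 and lower for 0 of 51 (74.6% and 1.15% of all genes). DESeq2 called 6 higher and 0 lower, counts given here without the share of all genes. Of the 4 members on the X chromosome, Rps4x was tested. It had 136, 372, 87.6 and 252 CPM in the female clones 23, 28, 5 and 8 and 111, 111, 132 and 129 in the male clones 12, 25, 1 and 17. The log2 fold change was 0.78 (SE 0.31, adjusted p = 0.34), with females on both sides of the males. Rpl10, Rpl36a and Rpl39 had 0 to 3, 0 to 2 and 0 to 8 counts in the 17 libraries and were not tested.

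The change of 129S1/SvImJ male iPSC from ESC/LIF to 2iS was compared in the same clones. Clones 1 and 17 were at passages 21 and 20 in ESC/LIF and 31 and 30 in 2iS, so medium and passage cannot be told apart. The summed share was 1.08% in ESC/LIF and 1.28% in 2iS for clone 1, and 0.822% and 1.13% for clone 17. Of 34 members tested, 0 were called by edgeR or DESeq2, where 8.89% of all genes were called (3.1% higher and 5.79% lower), and 7 had an unadjusted p under 0.05. Per uniquely aligned pair 0 were called (3.19% and 4.68% of all genes). The median log2 fold change was 0.37 for the members and 0.01 for all genes, and 27 of 34 were above 0. With the clone as a replicate block 0 were called and the median was 0.44. Rpl22, whose log2 fold change of 0.74 (SE 0.30) had the smallest adjusted p (0.109), had 49 and 12 counts in ESC/LIF (clones 1 and 17) and 35 and 45 in 2iS. In CPM these were 216 and 129 in ESC/LIF and 288 and 333 in 2iS, higher in 2iS for both clones. The stalk genes Rplp0 and Rplp1 had 0.57 and 0.60, and Rps4x had -0.08. The biogenesis factors (0 of 31) and translation factors (0 of 30) had no calls either.

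**Figure D5:**
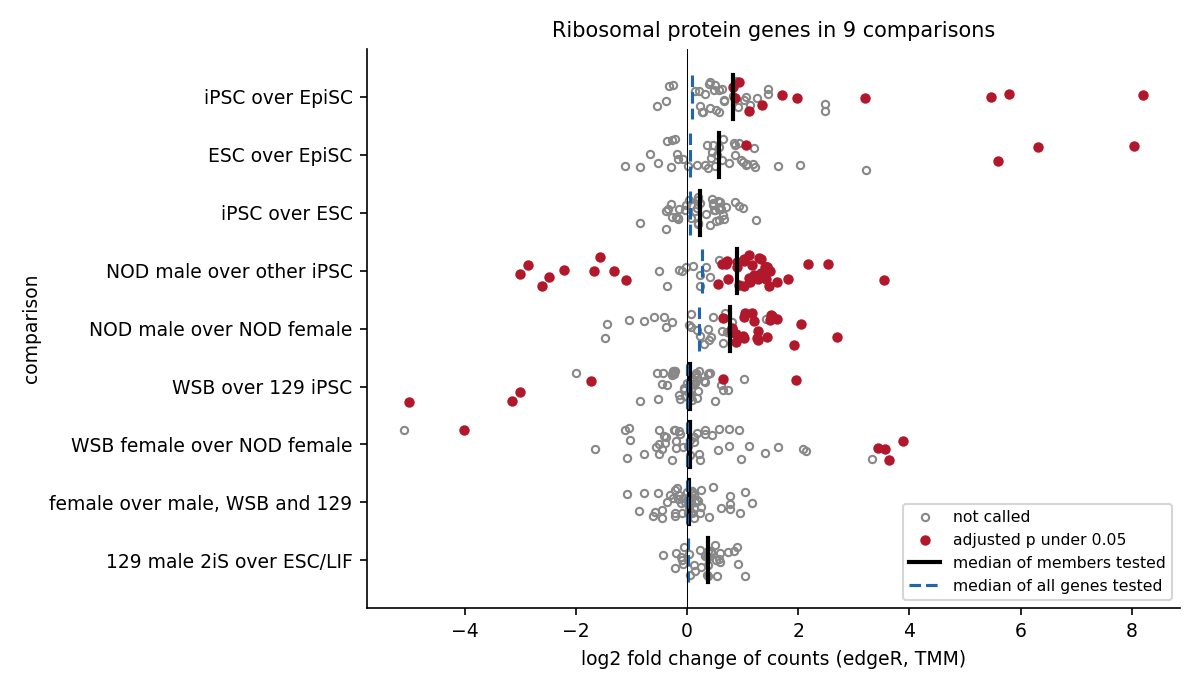
Log2 fold changes (edgeR, TMM) of the members tested in 9 comparisons. Filled points passed an adjusted p under 0.05, open points did not, the solid bar is the median of the members and the dashed bar that of all genes tested. The median of the members lies right of that of all genes for iPSC over EpiSC (0.83 and 0.10) and NOD/ShiLtJ male over other iPSC (0.90 and 0.27), and close to it for female over male (0.03 and 0.00).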

How the data were processed

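RNA-seq was done on 14 iPSC, 3 ESC and 2 EpiSC with a stranded mRNA kit. The authors trimmed read pairs, aligned them to GRCm38 with TopHat and deposited raw counts per gene from HTSeq (intersection-nonempty mode), 1 library each. Annotation and strand setting are not given in the sources used here. Uniquely aligned pairs are counts on genes, on no gene and ambiguous, and rows that name no gene (94.4% to 98.9% of these pairs, ambiguous ones included) were left out of library sizes and tests. CPM are counts per 1000000 gene counts.

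Conditions followed the titles, since the other labels of a sample name another condition in 19 of 19 libraries. Counts of 4 genes of Chromosome Y contradicted the sex of the title in 0 libraries and that of the characteristics in 10.

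Differences were tested with edgeR 4.0.16 in R 4.3.3 (TMM, filterByExpr, glmQLFit and glmQLFTest) over all genes, at a Benjamini-Hochberg adjusted p under 0.05, in 3 fits: cell states (12 iPSC without NOD/ShiLtJ males, 3 ESC, 2 EpiSC), 6 groups of strain and sex, and the 129S1/SvImJ males in both media. All adjusted p-values are from edgeR unless DESeq2 is named. DESeq2 1.42.0 and the settings in the closing section were alternatives. Apart from uniquely aligned pairs, their counts of members stand without a share of all genes. They show how far the calls moved and not whether members differ from other genes. The models were tested on simulated data. Replicates are libraries of clones or lines, so p-values measure the spread between these libraries. In the cell state fit the 129S1/SvImJ male clones entered in both media as separate iPSC libraries, without a block for the clone. The 12 iPSC libraries of that fit therefore come from fewer clones. The clones of a strain came from pooled fibroblasts of a litter, so the spread between separate derivations of a strain was not measured. Clone numbers pair the 129S1/SvImJ male libraries, since the labels give the same clones, and the deviations of clone 1 in both media correlated at 0.067 over 2160 genes. No pair of replicate libraries agreed within sampling noise. Rates of few counts were compared with exact binomial intervals (scipy 1.17.1).

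Named members were the 10 with the highest mean CPM, the 5 called with the largest change in each direction per comparison, a list of landmark and X-linked members, and paralogues. Some members that this rule names are not reported here. Near-identical copies were found with BLASTN against GENCODE M21 transcripts (95% identity over 100 bases). Members and lists were chosen with earlier results of these data known.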

Additional observations from a re-analysis of the deposited data

Results flagged for a closer look

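In 9 of 120 sets of libraries examined, a single library lay apart from the others by Dixon's criterion, which chance alone gives in about 1 of 20 sets. Among the 4 WSB/EiJ iPSC, Rpl10l was at 0 CPM in male clone 25 (18.6 or more in the others), Rps4x was at 371.7 CPM in female clone 28 (111 to 136) and Rpl32 was at 658.3 CPM in female clone 23 (463 to 469). Among the 4 iPSC of 129S1/SvImJ in ESC/LIF, Rps26 was at 118.3 CPM in male clone 17 (203 to 217) and Rpl6 at 88.79 CPM in female clone 8 (47.2 to 53.8). WSB/EiJ female clone 28 also stood apart among the 10 iPSC of strain and sex other than NOD/ShiLtJ males, with 198.8 summed member pairs per 1000000 uniquely aligned pairs (118.5 to 158.5 in the others) and Rps14 at 325.2 CPM (113 to 221). Among the 4 female iPSC of WSB/EiJ and 129S1/SvImJ, Rpl41 was at 172.7 CPM in 129S1/SvImJ clone 8 (240.3 to 242.6) and Rpl38 at 94.04 CPM in WSB/EiJ clone 23 (9.87 to 18.6).

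The difference of male minus female iPSC in NOD/ShiLtJ was set against the mean of the same difference in WSB/EiJ and 129S1/SvImJ, as an interaction in edgeR. It was higher for 14 and lower for 1 of 51 members, where 8.32% of all genes were higher and 19.8% lower. With uniquely aligned pairs as the library size it was higher for 43 and lower for 0 (74.6% and 1.15% of all genes). DESeq2 called 6 higher and 0 lower, counts given here without the share of all genes. The log2 difference was 2.06 for Rpl6 (SE 0.55, adjusted p = 0.00448), 1.76 for Rpsa (SE 0.47, adjusted p = 0.00528), 1.72 for Rps14 (SE 0.39, adjusted p = 0.000961) and 1.53 for Rps15 (SE 0.35, adjusted p = 0.00116). The member that was lower was Rpl23a, at -2.55 (SE 0.81, adjusted p = 0.0182), and per uniquely aligned pair it had -0.08 (adjusted p = 0.944).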

How the results depend on the processing

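Few counts limit these results: only 12 members of the cell state fit and 18 of the strain fit had at least 10 counts in every library. With that filter 5 members were higher in iPSC than in EpiSC, 18 higher and 0 lower in NOD/ShiLtJ male iPSC than in the others, 0 lower in WSB/EiJ than in 129S1/SvImJ, and 0 higher and 0 lower in WSB/EiJ than in NOD/ShiLtJ females. Without a filter 19 were higher in iPSC than in EpiSC. With uniquely aligned pairs as library size the counts were 24 higher (iPSC over EpiSC), 0 lower (NOD/ShiLtJ male over other iPSC), 47 higher (NOD/ShiLtJ male over female), 4 higher (WSB/EiJ over 129S1/SvImJ) and 7 higher (WSB/EiJ over NOD/ShiLtJ female), and Rpl28 was at 0.078 in NOD/ShiLtJ males over others. DESeq2 called 11 higher in NOD/ShiLtJ males over females, 0 higher in WSB/EiJ over 129S1/SvImJ, and 1 higher and 0 lower in WSB/EiJ over NOD/ShiLtJ females. Among members without exons opposite another gene, 4 were lower in NOD/ShiLtJ males, 1 was higher and 2 lower in WSB/EiJ over 129S1/SvImJ, and 0 were lower in WSB/EiJ over NOD/ShiLtJ females. With NOD/ShiLtJ male iPSC included, 7 were higher in iPSC and 2 in ESC over EpiSC, and with strain as a covariate 7 were higher in ESC over EpiSC. For iPSC against ESC the count was 0 under every alternative run. These counts show how the calls moved, without a share of all genes to set them against. The cause of these differences was not tested.

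Leaving out 1 library at a time, where a group left with a single library is assumed to vary like the others, gave 1 to 14 members higher in iPSC over EpiSC, 1 to 8 in ESC over EpiSC, 26 to 33 higher and 6 to 9 lower in NOD/ShiLtJ males over others, 13 to 23 in NOD/ShiLtJ males over females (13 without NOD/ShiLtJ female clone 7), 1 to 5 higher and 3 to 4 lower in WSB/EiJ over 129S1/SvImJ, 2 to 5 higher and 0 to 1 lower in WSB/EiJ over NOD/ShiLtJ females, and 0 in female over male. For WSB/EiJ over 129S1/SvImJ the count higher was 1 without WSB/EiJ male clone 12, 5 without WSB/EiJ female clone 28 and 4 without NOD/ShiLtJ female clone 52. For WSB/EiJ over NOD/ShiLtJ females it was 2 without NOD/ShiLtJ clone 7 or 52 or WSB/EiJ clone 28, and the count lower was 0 without NOD/ShiLtJ clone 7 or WSB/EiJ clone 28. For 2iS over ESC/LIF it was 0 to 1, with 1 without the ESC/LIF library of clone 1. With the clone as replicate block, 0 members were called between the media, as without it, and the calls over all genes went from 192 to 102.

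With the conditions of the other labels, which the Y genes contradict, 0 members were higher in iPSC or ESC over EpiSC, 0 higher and 1 lower in NOD/ShiLtJ males over others, 0 higher over NOD/ShiLtJ females, 1 higher and 1 lower in female over male, 4 higher and 1 lower in WSB/EiJ over 129S1/SvImJ, 0 and 0 in WSB/EiJ over NOD/ShiLtJ females, and 1 higher and 15 lower in 2iS over ESC/LIF. Log2 fold changes then turned direction for NOD/ShiLtJ males over others in Rpl21 (0.41), Rpl28 (0.81), Rps16 (0.29), Rpl39l (-5.36), Rpl41 (-0.71), Rps15 (-0.87), Rps2 (-0.58) and Rpsa (-0.19), over females in Rpl39l (-5.35), Rpl41 (-0.38) and Rpsa (-0.048), for WSB/EiJ over 129S1/SvImJ in Rpl15 (2.71), Rpl21 (4.62), Rpl32 (-1.003), Rpl38 (-1.13), Rps2 (1.90) and Rps26 (0.37), and for WSB/EiJ over NOD/ShiLtJ females in Rps2 (0.088).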
